A study of Mus musculus with 10 samples.

Results

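The acute phase proteins described here were 10 secreted liver proteins, encoded by Saa1, Saa2, Saa3, Saa4, Lcn2, Orm1, Orm2, Orm3, Hp and Crp. They were found by gene name among the 55421 gene identifiers of the count table, and all 10 were present and passed the filter of at least 10 counts over the 10 livers, as did 22449 genes in all. RNA came from whole livers of male C57BL/6 mice that lost histone variant H3.3 in hepatocytes, or that served as controls. KO mice (n = 4) carried H3f3a fl/fl and H3f3b fl/fl alleles and received AAV8 Tbg-Cre, a virus that expresses Cre recombinase from the hepatocyte promoter Tbg. WT_Cre controls (n = 3) were wild-type mice given the same virus, and MCS controls (n = 3) were floxed mice given AAV8 Tbg-MCS, which carries no Cre. Virus was injected into the blood behind the eye at 6 months of age in all groups, and livers were taken 3 weeks later, so that no group was free of virus. One genotype label of the floxed mice names HIRA and not the H3.3 genes, and the groups follow the sample titles. Control columns were assigned to a kind of control by the library number, so values for one kind of control rest on that match, whereas KO against all 6 controls does not.

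Acute phase proteins are plasma proteins whose output by the liver changes within hours of infection or tissue injury. Interleukin 6 and related cytokines act on hepatocytes through STAT3, and interleukin 1 and tumour necrosis factor act through NF-kappaB and C/EBP factors. In mice the serum amyloid A proteins are the strongest responders, whereas Crp, a major marker in humans, responds weakly. Liver RNA was read as a whole, so that fewer cells of a type and less RNA per cell cannot be told apart.

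Libraries held 14998426 (KO 1) to 26096141 counts. H3f3a had 17.4 ± 1.66 CPM (counts relative to the library total after TMM scaling) in KO livers (SD, n = 4) and 62.1 ± 1.58 CPM in controls (SD, n = 6), and H3f3b had 50.5 ± 7.40 and 160 ± 24.0 CPM, with no overlap between groups for either gene. One control liver, MCS 3, stood apart for the acute phase genes. Counts of the 10 genes made up 0.852% of its library and 0.249% to 0.498% of the other 9. Among the 10 livers MCS 3 had the highest CPM for 9 of the 10 genes, which was true of 10.5% of all genes tested. Values of the 10 genes are therefore given per liver, and their comparisons with and without MCS 3. Leaving MCS 3 out was thus chosen after these genes were seen, and it favours higher values in KO.

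The family members lie side by side and share sequence. On mm10 (GRCm38), by the GENCODE M21 annotation, the Saa genes occupy one stretch of chromosome 7 with Saa3 at 46711998 to 46715700, Saa4 at 46727998 to 46732603, Saa1 at 46740497 to 46742980 and Saa2 at 46751790 to 46754313. The Orm genes lie on chromosome 4, with Orm1 at 63344560 to 63348163, Orm3 at 63356162 to 63359511 and Orm2 at 63362449 to 63365878. Lcn2 lies on chromosome 2 at 32384633 to 32388252, Hp on chromosome 8 at 109575128 to 109579172, and Crp on chromosome 1 at 172698055 to 172833031. Coding sequences of Saa1 and Saa2 were identical at 95.1% of 369 aligned bases, whereas Saa3 matched Saa1 at 76.2% and Saa4 matched it at 68.8%. Orm1 and Orm2 were identical at 89.9% of 624 bases, and Orm3 matched Orm1 at 86.5%. The same 30 coding bases of each copy, from the GENCODE transcripts, are given as an example, with capitals where a copy differs from the first one of its family. In this stretch Saa3 and Saa4 matched Saa1 at 26 and 22 bases, and Orm2 matched Orm1 at all 30. The copies thus match more closely here than over the whole coding sequence.
Saa1: ggggctggggacatgtggcgagcctacact
Saa2: ggggctggAgacatgtggcgagcctacact
Saa3: gggTctAgAgacatgtggcgagcctacTct
Saa4: gggActTgggacTtgtggAgagcctaTCGG
Orm1: cctatcaccaatgagaccctgagctggctc
Orm2: cctatcaccaatgagaccctgagctggctc
Orm3: cctatcaccaatgagaccctgagctggctA

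Stretches of 50 bases that occur in 2 copies were counted over the main coding transcripts. Such stretches made up 13.2% of those of Saa1 (shared with Saa2), or 31.5% over all annotated transcripts of Saa1, and 20.4% of those of Orm1 (shared with Orm2). Saa3 shared 9 of its 506 stretches with Saa1 and none with Saa2 or Saa4, and Orm3 shared 26 of 724 with Orm2. How reads with several matches were counted is not given in the sources used here, so that counts of Saa1 and Saa2, and of Orm1 and Orm2, may be split between the copies. Summed counts are given beside these genes where they bear on a result.

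Saa1 and Saa2 encode the serum amyloids that are carried on high density lipoprotein and are made by hepatocytes. Saa1 had 17.4, 50.5 and 19.7 CPM in WT_Cre 1 to 3, 30.5, 58.3 and 1706 CPM in MCS 1 to 3, and 74.3, 172, 107 and 93.9 CPM in KO 1 to 4. Saa2 had 8.50, 27.9 and 9.21 CPM in WT_Cre, 12.9, 23.9 and 1213 CPM in MCS, and 43.9, 81.2, 43.5 and 33.7 CPM in KO livers. All 4 KO livers were above 5 of the 6 controls for both genes and far below MCS 3. In the main edgeR fit the direction of the comparison thus turned on that one liver. With MCS 3 kept, the direction also turned with the scale and the model. On log2(FPKM + 1) limma gave 1.02 for Saa1 and 0.88 for Saa2, and the replicate block gave 0.73 and 0.86, none of which passed. Against all 6 controls the log2 fold change of KO was -1.49 (SE 1.52, edgeR adjusted p = 0.495) for Saa1 and -2.09 (SE 1.71, edgeR adjusted p = 0.386) for Saa2, and neither passed. Without MCS 3 both were called higher, by 1.67 (SE 0.413, edgeR adjusted p = 0.0136) for Saa1 and 1.62 (SE 0.426, edgeR adjusted p = 0.0181) for Saa2. Summed counts of the pair gave -1.71 (SE 1.58, edgeR adjusted p = 0.449) with MCS 3 and 1.65 (SE 0.410, edgeR adjusted p = 0.0133) without it.

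Saa3 encodes a serum amyloid that is known from macrophages and adipose tissue as well as from liver. It had 3.13, 6.98 and 4.92 CPM in WT_Cre, 3.30, 9.11 and 7.10 CPM in MCS, and 24.4, 170, 110 and 84.3 CPM in KO livers. Every KO liver was above every control, and MCS 3 lay within the range of the other controls, at 1.29 times their mean. On the log2 scale KO rose by 4.08 with all livers (SE 0.521, edgeR adjusted p = 0.00039), and by 4.15 (SE 0.586, edgeR adjusted p = 0.00106) without MCS 3. KO 1 had the lowest level of the KO livers and was also the library with the fewest counts. The range within the KO group, 24.4 to 170 CPM, was wide beside that of the controls.

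Saa4 encodes the constitutive serum amyloid, which changes little in an acute response. It had 235, 220 and 264 CPM in WT_Cre, 369, 372 and 955 CPM in MCS, and 221, 194, 118 and 69.4 CPM in KO livers. The KO livers were below all 3 MCS controls, while KO 1 overlapped the WT_Cre controls. Against all 6 controls KO differed by -1.42 (SE 0.508, edgeR adjusted p = 0.0545), which missed the threshold, and without MCS 3 its log2 value fell by 0.96 (SE 0.328, edgeR adjusted p = 0.0452). That value passed the adjusted p but not the fold change that a call required.

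Lcn2 encodes lipocalin 2, which binds bacterial siderophores and so withholds iron. It had 1.29, 4.73 and 2.50 CPM in WT_Cre, 4.15, 3.71 and 91.7 CPM in MCS, and 14.2, 38.6, 29.4 and 22.3 CPM in KO livers. The KO livers lay between MCS 3 and the other 5 controls, and did not overlap with either. KO differed from all 6 controls by 0.56 (SE 1.21, edgeR adjusted p = 0.762) and rose by 3.00 (SE 0.386, edgeR adjusted p = 0.000402) without MCS 3. Hp encodes haptoglobin, which binds free haemoglobin. Hp had 1794, 2767 and 2061 CPM in WT_Cre, 2358, 2388 and 4263 CPM in MCS, and 1662, 3370, 2701 and 2600 CPM in KO livers. These ranges overlapped, and the log2 difference of KO was -0.012 (SE 0.242, edgeR adjusted p = 0.976) with MCS 3 and 0.18 (SE 0.193, edgeR adjusted p = 0.495) without it.

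The orosomucoids, or alpha-1-acid glycoproteins, bind drugs and lipids in plasma. Orm1 had 508, 462 and 506 CPM in WT_Cre, 593, 655 and 1074 CPM in MCS, and 213, 365, 367 and 421 CPM in KO livers. All KO livers were below all controls, and the difference of -0.89 (SE 0.257, edgeR adjusted p = 0.0175) passed the adjusted p but not the fold change for a call. Without MCS 3 it was -0.67 (SE 0.185, edgeR adjusted p = 0.0136). Orm2 had 6.63, 10.1 and 8.85 CPM in WT_Cre, 8.02, 10.6 and 34.4 CPM in MCS, and 10.0, 24.6, 18.8 and 19.5 CPM in KO livers. Its difference was 0.49 (SE 0.483, edgeR adjusted p = 0.472) with MCS 3 and 1.05 (SE 0.224, edgeR adjusted p = 0.00386) without it. Orm1 and Orm2 thus had opposite signs in both settings, and Orm2 passed only without MCS 3. Orm3 was the least abundant, with 1.25, 0.390 and 0.516 CPM in WT_Cre, 2.00, 2.68 and 12.9 CPM in MCS, and 0.456, 0.119, 0.253 and 0.306 CPM in KO livers. The KO values rested on 7, 3, 6 and 8 counts. In log2 terms KO fell by 3.55 with all livers (SE 1.19, edgeR adjusted p = 0.0426), and by 2.31 (SE 0.625, edgeR adjusted p = 0.0145) without MCS 3. With all livers the adjusted p of Orm3 was close to the threshold, and it was lost without MCS 1, MCS 2 or any 1 of the KO livers (0.0535 to 0.107), with no filter beyond 1 count (0.0859), with limma on log2(FPKM + 1) (0.0605) and with the replicate block (0.155). The summed counts of the 3 genes, which were mostly Orm1, differed by -0.85 (SE 0.263, edgeR adjusted p = 0.0245), and by -0.62 (SE 0.185, edgeR adjusted p = 0.02) without MCS 3.

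Crp encodes C-reactive protein, a pentraxin that binds phosphocholine on microbes and dying cells. It had 352, 359 and 372 CPM in WT_Cre, 422, 407 and 582 CPM in MCS, and 172, 235, 189 and 189 CPM in KO livers. All KO livers were below all controls, and the controls other than MCS 3 varied little. In log2 terms KO fell by 1.08 with all livers (SE 0.155, edgeR adjusted p = 0.000181), and by 0.96 (SE 0.118, edgeR adjusted p = 0.000102) without MCS 3, which passed the adjusted p but fell short of the fold change for a call. The Crp gene model also covers a pseudogene, Gm38051.

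**Figure D1:**
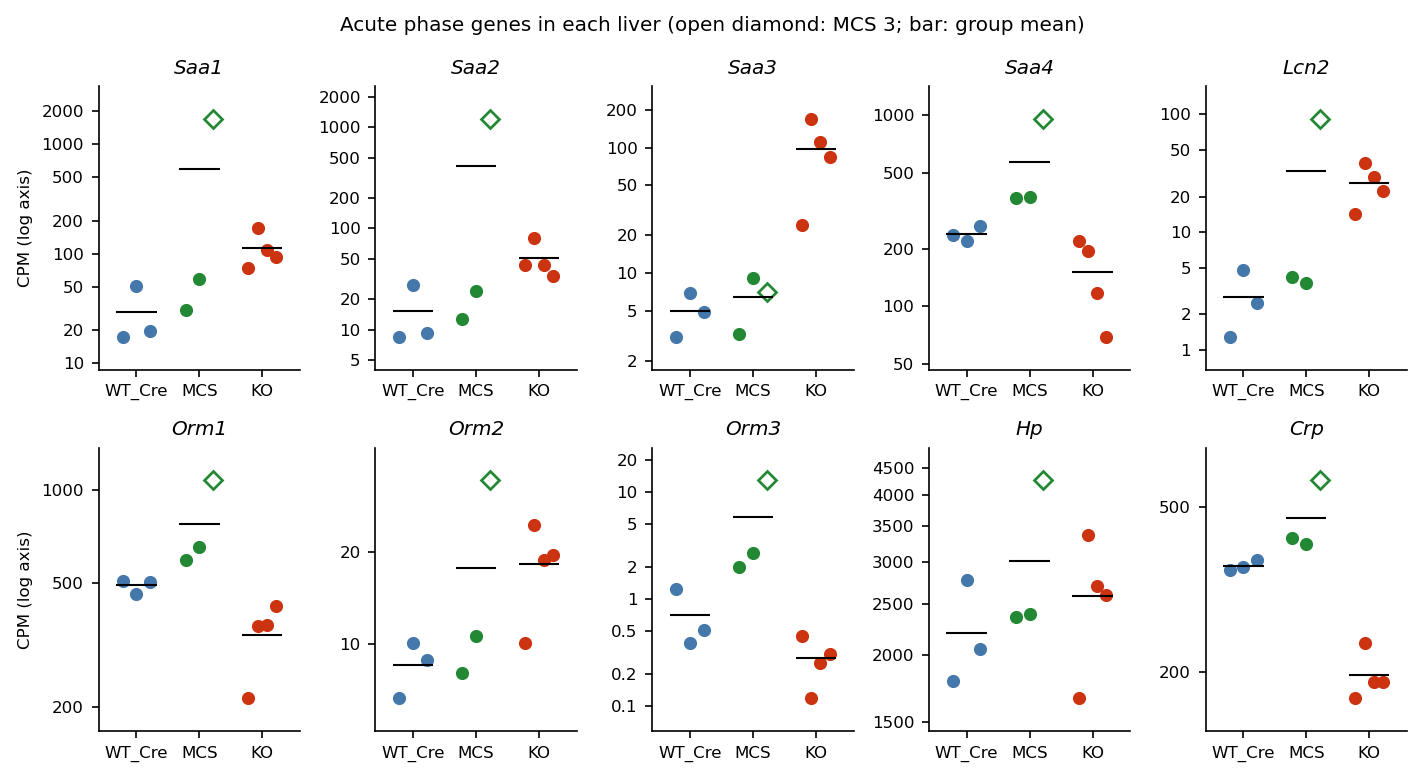
Expression of the 10 acute phase genes in each liver, in CPM on a log axis with a scale of its own for each gene, for WT_Cre (n = 3), MCS (n = 3) and KO (n = 4) livers. Points are livers, horizontal bars are group means, and the open diamond is MCS 3, which reached 1706 CPM for Saa1 and 91.7 CPM for Lcn2 but 7.10 CPM for Saa3.

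A gene was called where its adjusted p was under 0.05 and its log2 fold change was beyond 1 in either direction. By that rule 1 of the 10 genes was higher in KO against all 6 controls (Saa3), and 2 were lower (Orm3 and Crp). Over all genes 18.7% were called, 12.9% higher and 5.79% lower. Without MCS 3, 5 were higher (Saa1, Saa2, Saa3, Lcn2 and Orm2) and 1 was lower (Orm3), beside 18.9% of all genes, 12.9% higher and 5.99% lower. Groups that did not overlap with the 6 controls were found above them for Saa3 and below them for Orm1 and Crp, beside 12.5% and 12% of all genes. Without MCS 3, 4 genes (Saa1, Saa2, Saa3 and Lcn2) were above the 5 controls in every KO liver and 2 (Orm1 and Crp) below them, beside 14.5% and 14.6% of all genes. MCS 3 was left out after its high levels of these genes were seen. The shares of all genes without MCS 3 are therefore not a matched background for the 10 genes. The median log2 fold change of the 10 genes was -0.99 with MCS 3 and 0.62 without it, and that of all genes was -0.0030 with MCS 3.

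Set against the mean of the other 5 controls, the profiles of MCS 3 and of the KO livers differed. In MCS 3, Saa2 was 73.6 times that mean, Saa1 48.4 times, Lcn2 28.0 times, Orm3 9.45 times, Orm2 3.90 times, Saa4 3.27 times, Orm1 1.97 times, Hp 1.88 times, Crp 1.52 times and Saa3 1.29 times. In KO livers the mean of Saa3 was 17.7 times that of these controls, and those of Lcn2, Saa1, Saa2 and Orm2 were 7.98, 3.17, 3.07 and 2.07 times. Hp was 1.14 times as high in KO. The KO means of Orm1, Saa4, Crp and Orm3 were 62.7%, 51.6%, 51.3% and 20.7% of the 5 controls. MCS 3 is a single liver, so its profile was not tested against that of the KO livers.

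**Figure D2:**
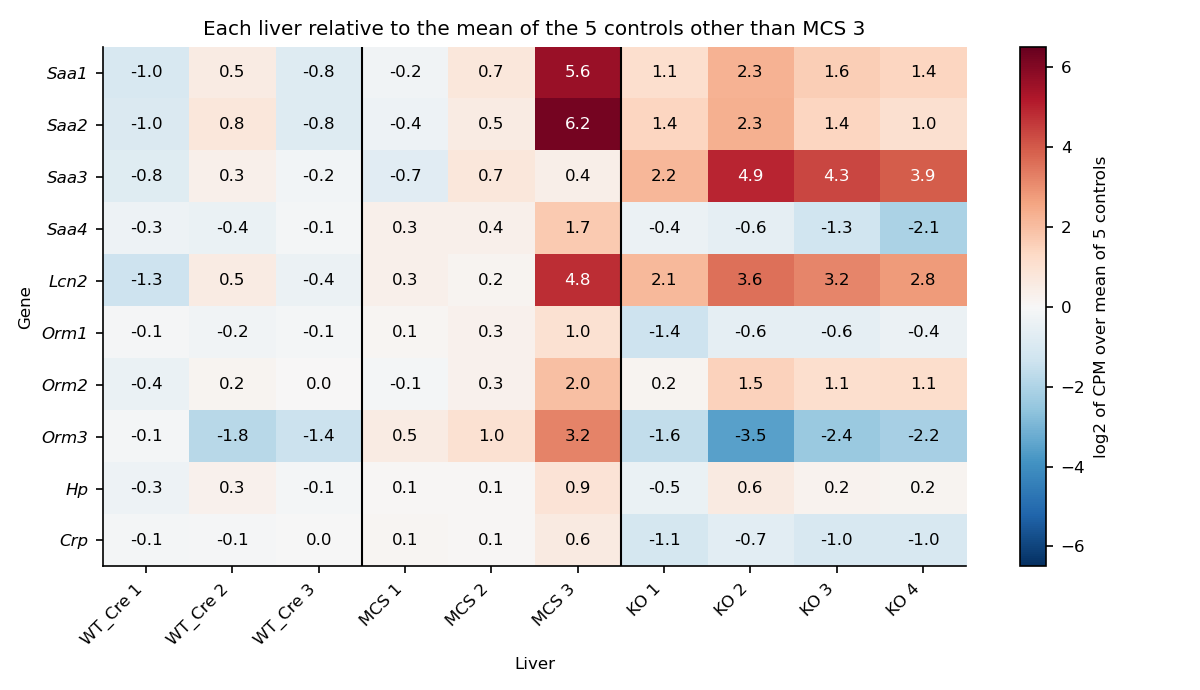
Log2 of each liver's CPM over the mean of the 5 controls other than MCS 3, for the 10 genes (rows) and 10 livers (columns, with lines between groups). Red is above and blue is below that mean. MCS 3 is red in every row and palest for Saa3, whereas the KO livers are reddest for Saa3 and blue for Orm3, Crp, Saa4 and Orm1.

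The kinds of control share the KO group, and each asks another question, since WT_Cre mice share the virus with KO mice and MCS mice share the floxed alleles. Against WT_Cre, Saa3 was the 1 gene called (log2 fold change 4.28, SE 0.726, edgeR adjusted p = 0.00377), beside 15.9% of all genes, 10.6% higher and 5.33% lower. In that fit the spread was estimated over all 10 livers, MCS 3 included. Without MCS 3 the differences from WT_Cre were nearly the same in size and 5 genes were called higher, namely Saa1 by 1.94 (SE 0.487), Saa2 by 1.74 (SE 0.533), Saa3 by 4.28 (SE 0.767), Lcn2 by 3.21 (SE 0.477) and Orm2 by 1.11 (SE 0.276), beside 16% of all genes, 10.7% higher and 5.34% lower. The same number was called when the fit held only the KO and WT_Cre livers. Against MCS, Saa3 was higher (3.91, SE 0.711, edgeR adjusted p = 0.00434), and Saa4, Orm1, Orm3 and Crp were lower, beside 17.5% of all genes, 11.9% higher and 5.54% lower. Those 4 differed by -1.91 (SE 0.446), -1.18 (SE 0.237), -4.40 (SE 0.776) and -1.26 (SE 0.147). With the 2 MCS livers left after MCS 3 was removed, Saa3 and Lcn2 were called higher and Saa4, Orm3 and Crp lower, beside 16.5% of all genes, 10.8% higher and 5.62% lower. Saa3 was called in each of these comparisons.

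Between the kinds of control none of the 10 genes was called by edgeR, beside 0.641% of all genes, 0.298% higher and 0.343% lower. All 10 log2 fold changes of WT_Cre over MCS were negative, from -4.78 for Saa2 to -0.37 for Saa3, and 7 genes had an unadjusted edgeR p under 0.05. DESeq2 called 2 of the 10 genes lower. Without MCS 3 the difference was -0.60 for Saa1 and -0.28 for Saa2, and 1 gene, Orm3, had an unadjusted edgeR p under 0.05 (-1.69, adjusted p = 0.218).

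**Figure D3:**
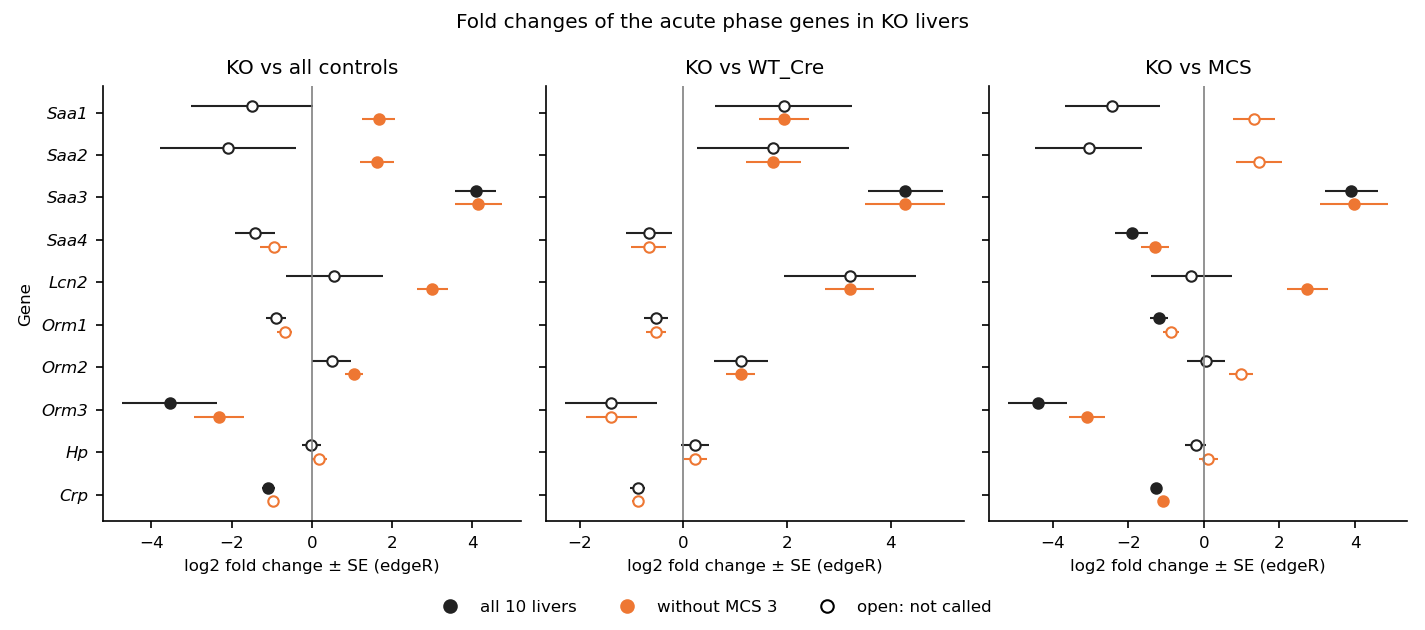
Log2 fold changes of the 10 genes in KO livers against all controls, WT_Cre and MCS (edgeR, bars are standard errors), with all 10 livers in black and without MCS 3 in orange. Filled points were called and open points were not. Saa1, Saa2 and Lcn2 shift to the right without MCS 3 in the comparisons with all controls and with MCS, while Saa3 stays near 4.

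Levels of different genes can be set side by side only per length of transcript, for which the deposited FPKM values were used. In the 5 controls other than MCS 3 the order was Hp (1439 ± 234 FPKM), Orm1 (622 ± 61.8), Crp (184 ± 8.92), Saa4 (112 ± 22.3), Saa1 (50.8 ± 24.8), Orm2 (25.5 ± 2.91), Saa2 (24.9 ± 13.2), Saa3 (9.25 ± 4.21), Lcn2 (3.17 ± 1.27) and Orm3 (1.21 ± 0.760), as mean and SD over 5 livers. Orm2 and Saa2 were within their spread of each other, and the 4 highest were apart by more than their SDs in FPKM. The order depends on the measure. By CPM per kilobase of annotated exon, Saa4 (105.0 to 177.8) was above Crp (102.3 to 122.5) in each of these 5 controls. In KO livers Hp (1845 ± 518 FPKM) and Orm1 (451 ± 124) stayed first, followed by Saa3 (198 ± 122), Saa1 (186 ± 68.0), Crp (105 ± 15.3), Saa2 (90.3 ± 38.1) and Saa4 (64.5 ± 28.0), as mean and SD over 4 livers. Saa3, Saa1 and Crp, and likewise Crp, Saa2 and Saa4, overlapped within 1 SD of a neighbour. Orm2 (33.1 ± 10.6 FPKM), Lcn2 (28.9 ± 11.9) and Orm3 (0.235 ± 0.118) came last. By CPM per kilobase of annotated exon, Saa3 was below Saa4 in every KO liver, unlike in mean FPKM. Saa3 and Saa4 had 9.35 and 105 in KO 1 and 65.0 and 92.8 in KO 2. They had 42.2 and 56.3 in KO 3 and 32.35 and 33.13 in KO 4.

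Within the Saa family, Saa4 held 58.5% ± 12.3 of the summed FPKM in these 5 controls, and Saa3 held 4.62% ± 1.41. In KO livers Saa3 held 34.3% ± 13.5 and Saa4 13.5% ± 9.31 (SD, n = 4). MCS 3 differed from both, since Saa3 held 0.272% and Saa4 8.35% there. These shares rest on the FPKM values, and by CPM per kilobase of annotated exon Saa3 stayed below Saa4 in every KO liver. Counts of Saa3 per count of Saa1 were 0.328 to 1.02 in KO livers, 0.108 to 0.249 in the 5 controls and 0.00416 in MCS 3, a ratio within each library that does not depend on scaling between libraries. The ratio of Saa2 to Saa1 was 0.457 ± 0.101 in KO livers and 0.468 ± 0.0567 in the 5 controls, and reached 0.711 in MCS 3. For the orosomucoids, Orm2 counts per count of Orm1 were 0.0464 to 0.0676 in KO livers and 0.0131 to 0.0320 in the 6 controls, with no overlap. The FPKM of the same genes gave higher ratios, 0.0654 to 0.0899 in KO and 0.0374 to 0.0523 in controls. The direction was thus the same on both scales while the size differed, and Orm1 and Orm2 share sequence as given above.

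**Figure D4:**
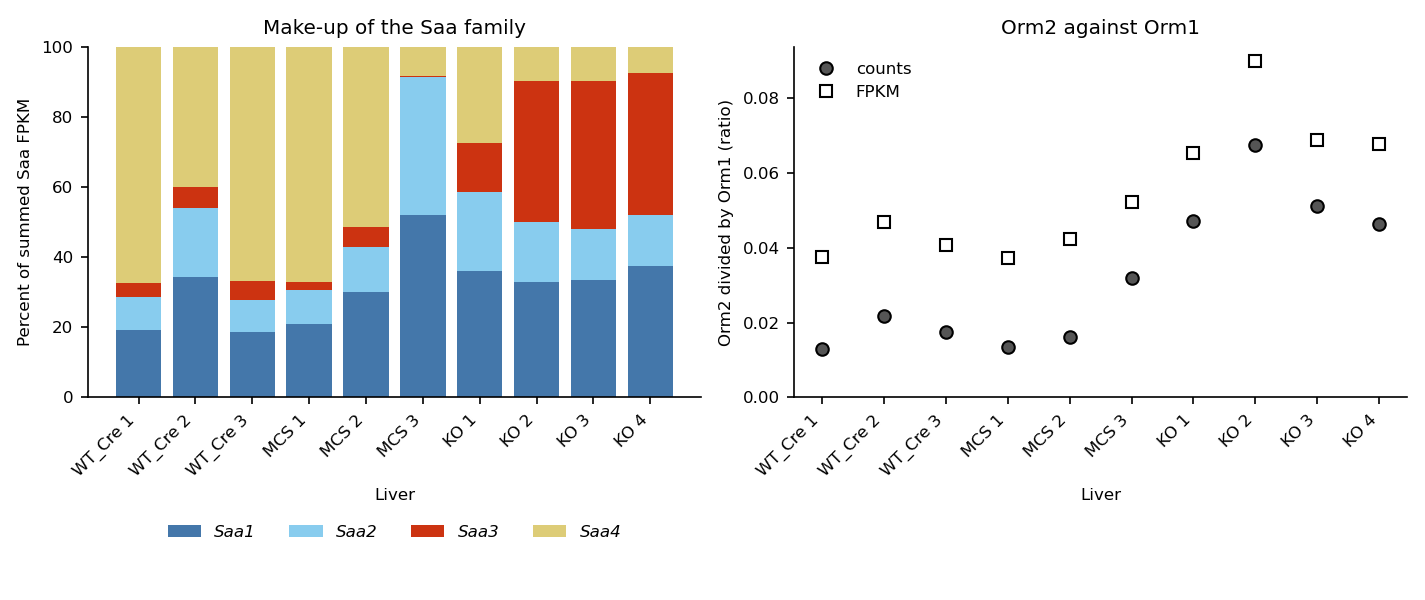
Left, share of the summed Saa FPKM held by Saa1, Saa2, Saa3 and Saa4 in each liver, in percent, where Saa3 (red) is widest in KO livers and almost absent in MCS 3. Right, the ratio of Orm2 to Orm1 in each liver from counts (filled circles) and from FPKM (open squares), which is higher in the 4 KO livers than in the 6 controls on both scales.

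Over the 10 livers the Pearson r of log2 CPM was 0.992 for Saa1 and Saa2, 0.353 for Saa1 and Saa3 and 0.278 for Saa2 and Saa3, as a description over livers that share groups. Without MCS 3, a setting chosen after seeing the data, these were 0.979, 0.925 and 0.881 over 9 livers. Saa3 thus ran with Saa1 and Saa2 in the other livers and parted from them in MCS 3. Promoter sequence is given beside these values. RefSeq promoters on GRCm38.p6, from 250 bases before to 50 bases after the start, matched 8 of the 10 genes, all but Orm1 and Hp. The C/EBP half-site pair TTNNGNAA, on either strand, occurred in all 8 and in 40.7% of 32851 promoters. The STAT motif TTCNNNGAA and the NF-kappaB consensus, on either strand, occurred in 0 of the 8 and in 8.3% and 4.51% of all promoters, which says only that these letters are not in these windows. TATAAA, on the strand of the gene, occurred in Crp, Orm2 and Orm3, and in 8.32% of all promoters. One C/EBP match each of Saa1, Saa2, Saa3 and Lcn2 is shown on the strand of the gene, with the motif in capitals. Saa3 shows the motif as written above, whereas Saa1, Saa2 and Lcn2 show its reverse complement, since their match is on the other strand. The windows are chr7:46743145-46743172 for Saa1, chr7:46751640-46751667 for Saa2, chr7:46715758-46715785 for Saa3 and chr2:32387938-32387965 for Lcn2.
Saa1: tgtgctcccaTTGCACAAtgagggagaa
Saa2: tgtgctcccaTTGCACAAtgagggaaaa
Saa3: gtaagtgggaTTATGCAAgatcaaacag
Lcn2: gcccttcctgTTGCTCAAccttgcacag
The Saa1 and Saa2 windows are near copies of each other, and those of Saa3 and Lcn2 are not. A match of letters is not evidence that a factor binds there.

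The genes whose log2 CPM was most like that of an acute phase gene over the 10 livers were sought among genes with a mean of at least 1 CPM, as a description by Pearson r over livers that share groups, libraries and MCS 3. For Saa1 and Saa2 the nearest was Steap4, a metalloreductase (r of 0.983 and 0.982). For Orm2 it was Socs3, the feedback inhibitor of cytokine signalling (0.98), which was also among the nearest 3 of Lcn2 (0.948). Orm3 was nearest to Ass1 of the urea cycle (0.976), Orm1 to the amino acid transporter Slc38a2 (0.984) and Hp to Edem3 (0.916). Nearest to Saa3 were Mirg (0.99), Fam49b (0.989) and Dennd1c (0.985), none of which was among the nearest of Saa1 or Saa2. These lists include MCS 3, the liver in which Saa3 parted from Saa1 and Saa2.

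Other genes of the acute phase response went in both directions. Of 22 further proteins that are known to rise in an acute response, 5 were higher and 5 lower in KO against all 6 controls, with a median log2 fold change of -0.20. Without MCS 3, 7 were higher and 5 lower, and the median turned to 0.33. Over all genes 12.9% were called higher with and without MCS 3, and 5.79% and 5.99% were called lower. Il1rn, the interleukin 1 receptor antagonist (2.86, SE 0.602, edgeR adjusted p = 0.00551), and Cd14, the lipopolysaccharide co-receptor (1.87, SE 0.507, edgeR adjusted p = 0.0157), rose. The fibrinogen chain gene Fgb (-1.73, SE 0.356, edgeR adjusted p = 0.00318), the antiprotease gene Serpina3n (-2.56, SE 0.720, edgeR adjusted p = 0.022) and Apcs, the serum amyloid P gene (-1.29, SE 0.166, edgeR adjusted p = 8.54e-05), fell. All 5 kept their direction and their call without MCS 3, whereas Cd14 missed the threshold without KO 4 (edgeR adjusted p = 0.0545) and Serpina3n without KO 2, KO 3 or KO 4 (0.059 to 0.0614). Of 10 proteins that are known to fall in an acute response, 1 was called higher (Trf, transferrin, by 1.26, SE 0.126, edgeR adjusted p = 1.38e-05) and 1 lower (Fetub, fetuin B, by 2.53, SE 0.254, edgeR adjusted p = 2.32e-05). Apoa1 (-0.97), Ttr (-0.96), Igf1 (-0.88), Alb (-0.49) and Apoa2 (-0.45) were lower by the adjusted p (edgeR, at most 0.0232) but not by the fold change for a call. Rbp4, Ahsg and Serpina6 did not pass. In MCS 3, 12 of the 22 further proteins and none of the 10 were above 2 times the mean of the other 5 controls, beside 2.05% of 12881 genes with a mean of at least 1 CPM there.

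Of 10 cytokine genes that induce the response, 8 could be tested, 5 were higher and 1 lower. Beside these and the counts below, 12.9% of all genes were called higher with and without MCS 3, and 5.79% and 5.99% lower. Clcf1 rose by 2.72 (SE 0.224, edgeR adjusted p = 3.4e-06), Tnf by 2.58 (SE 0.590, edgeR adjusted p = 0.00513), Lif by 2.58 (SE 0.533, edgeR adjusted p = 0.00221) and Osm by 1.98 (SE 0.718, edgeR adjusted p = 0.0451). The call of Osm was lost without 7 of the 10 livers left out in turn, MCS 3 among them (edgeR adjusted p from 0.0577 to 0.172). Lif and Osm rested on only 45 and 23 counts over all 10 libraries. Lif lost its adjusted p under 2 of 17 alternatives, over which its log2 fold change was 0.0034 to 2.85. Il6 had 11 counts over all 10 libraries, so that a difference was not detectable at this depth (0.76, SE 0.923, edgeR adjusted p = 0.562). Of 14 genes for cytokine and Toll-like receptors and the adaptor Myd88, 4 were higher and 1 lower. The higher ones were the decoy receptor Il1r2 (2.52, SE 0.874), Tlr2 (2.07, SE 0.352), Tlr4 (1.54, SE 0.208) and Il10rb (1.19, SE 0.161). Of 15 genes for transcription factors and the kinases Jak1, Jak2 and Tyk2, the NF-kappaB subunits Relb (1.67, SE 0.262) and Nfkb2 (1.14, SE 0.225) were higher. That count was near the share of all genes called higher. Stat3 (0.066, SE 0.353, edgeR adjusted p = 0.905) and Cebpb (-0.090, SE 0.272, edgeR adjusted p = 0.83) did not pass with all livers. Without MCS 3 Stat3 differed by 0.47 (SE 0.145, edgeR adjusted p = 0.0241), short of the fold change for a call. Of 10 feedback genes and targets, Fgl2 (1.83, SE 0.237), Tnfaip3 (1.47, SE 0.275) and Socs1 (1.38, SE 0.440) were higher. Socs3 had 12.4 ± 4.24 CPM in KO livers (SD, n = 4), 4.44 ± 1.32 CPM in the 5 controls (SD, n = 5) and 27.8 CPM in MCS 3. Its difference was 0.60 (SE 0.657, edgeR adjusted p = 0.528) with MCS 3 and 1.49 (SE 0.264, edgeR adjusted p = 0.00136) without it, the same turn on MCS 3 as for Lcn2 and Orm2. Of 8 receptors for acute phase proteins and related genes, Fpr2 (1.84, SE 0.330), the immunoglobulin receptor Fcgr1 (1.77, SE 0.250) and haem oxygenase Hmox1 (1.10, SE 0.345) were higher. All of the receptors, factors and feedback genes named as higher with all livers had edgeR adjusted p-values of at most 0.0408. Il1r2 and Hmox1 lost that p without any 1 of the livers other than MCS 3 and KO 1 (0.0631 to 0.137 and 0.0546 to 0.0856), and Socs1 without 6 of the 10 (0.0515 to 0.102). Il1r2 had 64 counts over all 10 libraries. Without MCS 3, 4 cytokine genes, 5 genes of the cytokine and Toll-like receptor list, 2 transcription factors and 4 feedback genes were higher. So were 5 of the 8 receptors for the proteins and related genes, Hmox1 among them.

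**Figure D5:**
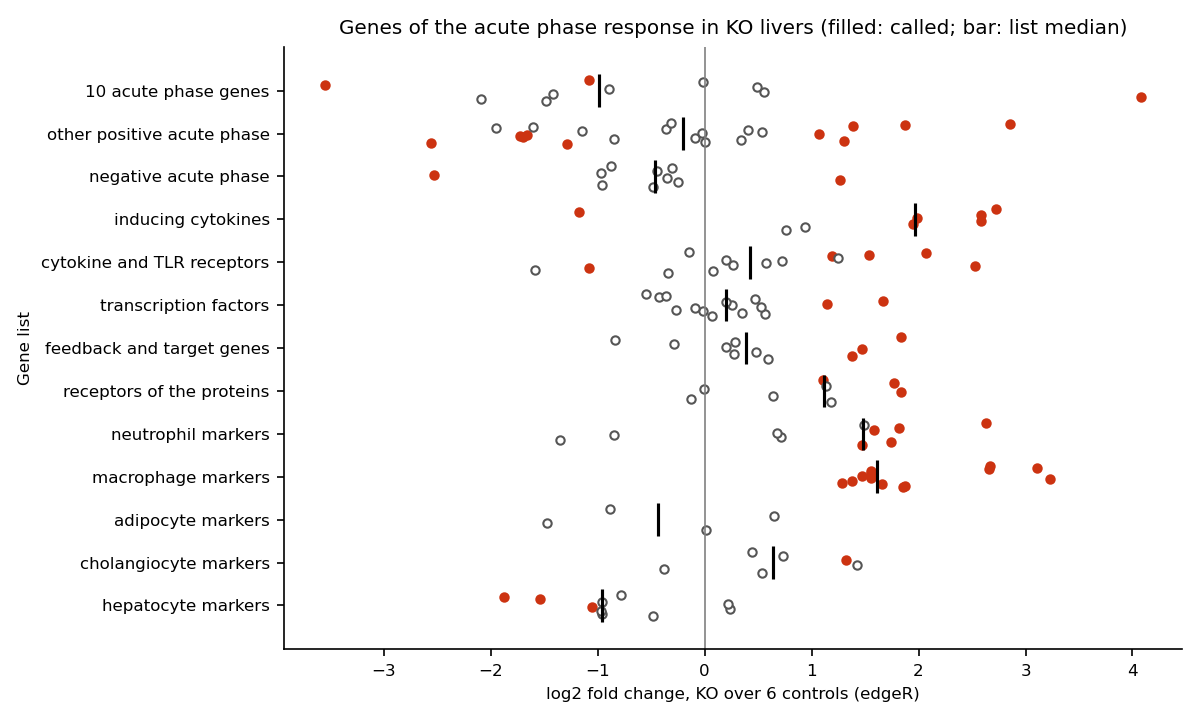
Log2 fold changes of KO over the 6 controls (edgeR) for the genes of 13 lists, 1 row a list and 1 point a gene. Filled red points were called and bars are list medians. All 14 macrophage markers lie to the right, while the further positive acute phase proteins lie on both sides.

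Among markers of cells that also make some of these proteins, those of macrophages moved with the groups, and the others less uniformly. Beside the counts given here, 12.9% of all genes were called higher with and without MCS 3, and 5.79% and 5.99% lower. All 14 macrophage markers were higher in KO (median log2 fold change 1.61), led by Marco (3.23, SE 0.480), Itgax (3.11, SE 0.364), Trem2 (2.66, SE 0.318) and Ccr2 (2.66, SE 0.262). Their summed level was 552 to 1222 CPM in KO livers, 241 to 297 CPM in the 5 controls and 458 CPM in MCS 3. Of 13 neutrophil markers 10 could be tested and 5 were higher in KO, among them Itgam (2.63, SE 0.470), Cxcr2 (1.82, SE 0.602), S100a9 (1.74, SE 0.494) and Csf3r (1.58, SE 0.357), whereas the defining genes Ly6g, Mpo and Camp had 4, 7 and 8 counts over all libraries. The tested markers Elane (-1.35, SE 0.985) and Ltf (-0.85, SE 1.18) went the other way, from 16 and 23 counts over all libraries. They were not called, nor were Ngp, Retnlg and Mmp8, which had positive log2 fold changes. The summed level of the neutrophil markers was 6.84 CPM in KO 1 and 20.2 to 31.7 CPM in the other KO livers. It was 4.15 to 6.42 CPM in the 5 controls and 15.2 CPM in MCS 3. KO 1 was thus lowest of the KO livers in both marker sums, and it was also the library with the fewest counts. It was lowest for 7 of the 10 acute phase genes, namely Saa1, Saa3, Lcn2, Orm1, Orm2, Hp and Crp. The share of all genes that were lowest in KO 1 was not determined, so no link to the marker sums is drawn from that count. Of 7 adipocyte markers, 4 could be tested and none was called, and Adipoq had 6 counts over all libraries. Of 7 cholangiocyte markers, 6 could be tested and Sox9 was higher (1.32, SE 0.224). Of 10 hepatocyte markers 3 were lower in KO, namely the bile acid transporter Slc10a1 (-1.88, SE 0.225), Cyp2e1 (-1.54, SE 0.192) and Tat (-1.05, SE 0.317). The others were not called, and of these Apob (0.24) and Cps1 (0.22) had positive log2 fold changes. Apoa1 (-0.97), Ttr (-0.96), Pck1 (-0.95), Asgr1 (-0.78) and Alb (-0.49) passed the adjusted p (edgeR, at most 0.0232) but not the fold change for a call. The summed level of the 10 was 83190 to 96500 CPM in KO livers and 110600 to 156400 CPM in controls, highest in MCS 3. Most of that sum was Alb, with a mean of 69200 CPM in KO livers and 96920 CPM in controls. The named markers that were called had edgeR adjusted p-values of at most 0.0326, and of these Tat alone fell short of a call without MCS 3 (-0.85). Cxcr2 missed the threshold without any 1 of the livers other than MCS 3 and KO 1 (edgeR adjusted p from 0.0568 to 0.0904), S100a9 without KO 2 (0.0609) and Tat without KO 1, KO 2 or KO 3 (0.0507 to 0.064). Without MCS 3 all 14 macrophage markers and 6 of the neutrophil markers were higher, with medians of 1.76 and 1.83, and 2 hepatocyte markers were lower (median -0.88). The part of these cell types in the levels of the acute phase genes was not tested.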

How the data were processed

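The authors aligned poly(A) reads to mm10 with STAR and deposited whole-number counts per gene, without normalization, and FPKM values. The study's methods name HOMER as the counter, whereas the labels' processing notes name STAR, HTSeq and Cufflinks. The tool behind the FPKM values, the strandedness used in counting and how multiply mapped reads were treated are not given in the sources used here. Blank FPKM cells (268042) were read as 0.

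Genes with at least 10 counts over the 10 livers were tested with edgeR 4.0.16 (quasi-likelihood F test, TMM, robust, R 4.3.3), adjusted by the Benjamini-Hochberg method over 22449 genes. Standard errors (SE) were taken as the ratio of each log2 difference to its root F statistic. KO was set against pooled controls in a fit of 2 groups, and against each kind of control in a fit of 3. The test was checked on simulated counts. Alternatives were DESeq2 1.42.0, limma 3.58.1 on log2(FPKM + 1) and log2(FPKM + 0.1), other scalings and filters, a replicate block and leaving out each liver. Totals of 14998426 to 26096141 counts limit genes near 10 counts. Counting error alone is not the spread between mice.

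The members, lists and rules were chosen with earlier results of these data known. All 10 members were named, and of each other list the 4 largest changes among called genes plus Apcs, Serpina3n, Fgb, Stat3, Socs3, Cebpb and Il6. No source says how the livers relate beyond their titles, so p-values measure the spread between these samples. No 2 libraries of a group were alike (chi-square per degree of freedom of 10.3 to 96.7). The genes most like Crp and Saa4 are not reported here.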

Additional observations from a re-analysis of the deposited data

Results flagged for a closer look

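The highest control stood outside Dixon's 95% limit for 8 of the 10 genes, and in each case it was MCS 3. Over the 6 controls and the 4 KO livers 20 groups were examined, of which chance flags about 1 in 20, a rate that does not apply here since the genes were chosen with the levels in MCS 3 known. The MCS 3 values were 1706 CPM for Saa1, 1213 CPM for Saa2, 955 CPM for Saa4, 91.7 CPM for Lcn2, 1074 CPM for Orm1, 34.4 CPM for Orm2, 12.9 CPM for Orm3 and 582 CPM for Crp. No KO liver was outside the limit for any gene, and the groups of 3 were not examined. The 8 values come from 1 liver and are not independent of each other.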

How the results depend on the processing

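Saa3 in every comparison with KO, and Crp against all controls and against each kind of control, kept their direction and their side of the adjusted p under all alternatives run. Over the 10 acute phase genes and 4 comparisons, 676 of 744 alternative values kept both, 12 lost the adjusted p, 24 gained it and 32 turned direction. For the other named genes these were 619, 63, 2 and 10 of 694. DESeq2 gave no adjusted p for Saa1 and Saa2. Orm3 lost its call against all controls without MCS 1, MCS 2 or any 1 of the KO livers (edgeR adjusted p from 0.0535 to 0.107), with no filter beyond 1 count (0.0859), in limma on log2(FPKM + 1) (0.0605) and with the block (0.155).

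Where a direction turned, its values are given here, and the cause was not tested. Leaving out 1 liver moved the log2 fold change of KO over all controls from -1.76 to 1.67 for Saa1, -2.41 to 1.62 for Saa2, -0.16 to 0.18 for Hp, -0.068 to 0.47 for Stat3 and -0.20 to 0.069 for Cebpb. Against MCS it moved from -2.98 to 1.33 for Saa1, -3.61 to 1.46 for Saa2, -0.87 to 2.73 for Lcn2, -0.29 to 0.98 for Orm2 and -0.37 to 0.12 for Hp. On log2(FPKM + 1) and log2(FPKM + 0.1), limma gave 1.02 and 1.04 for Saa1, 0.88 and 0.91 for Saa2, 0.20 and 0.20 for Hp and 0.21 and 0.21 for Cebpb against all controls, and 1.24 and 1.40 for Lcn2, -0.13 and -0.14 for Orm2 and 0.077 and 0.077 for Hp against MCS. Against all controls Hp was 0.0051 with DESeq2 size factors in edgeR, 0.0051 in DESeq2, 0.012 with filterByExpr and 0.19 with library size only, which gave 0.12 for Cebpb and, against MCS, 0.054 for Hp.

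Counts moved as follows. With limma on log2(FPKM + 1), 940 genes were higher and 338 lower against all controls (2899 and 1300 with edgeR), 768 and 363 against WT_Cre (2369 and 1197), 1041 and 338 against MCS (2682 and 1244), and 49 lower in WT_Cre against MCS (77). On log2(FPKM + 0.1) 709 were lower against all controls and 648 against MCS, and library size only gave 790 lower against MCS. Of the 10 genes, 1 was lower against all controls with library size only, no filter beyond 1 count or limma on either FPKM scale. It was 1 to 3 lower and 1 to 5 higher over the fits without 1 liver. Against WT_Cre, 3 were higher in DESeq2, 2 with filterByExpr, 2 with limma on log2(FPKM + 0.1), 5 with 2 groups only and 1 to 5 without 1 liver. Against MCS, 2 were lower with limma on both FPKM scales, and 1 to 2 were higher without 1 liver. Between the kinds of control, genes higher and lower were 147 and 167 in DESeq2 and 141 and 132 with 2 groups only, 116 were higher with library size only, and leaving out 1 liver gave 33 to 129 higher and 28 to 130 lower. DESeq2 called 2 of the 10 genes lower there. Fits without 1 liver of a kind of control assume that those left vary like the other groups.

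Replicate numbers did not pair the livers, since same-numbered livers of different groups had deviations that correlated from -0.0387 to 0.111. With the replicate block, 2391 genes were higher and 944 lower against all controls, and 1 and 2 of the 10 genes. Under the block the 2 lower genes were Crp and Orm1 (-1.02, edgeR adjusted p = 0.0144) in place of Orm3, and Saa4 against MCS was not called (-1.56, edgeR adjusted p = 0.0633). In the same block 118 genes were higher in WT_Cre against MCS, and the log2 fold change was 0.73 for Saa1 and 0.86 for Saa2 against all controls and 0.64 for Lcn2 against MCS. Depth limits Orm3, Il6, Osm, Lif, Il1r2 and the neutrophil genes Ly6g, Mpo and Camp.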
